A study of Mus musculus with 6 samples.

Results

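The integrated stress response and the supply of amino acids were followed here through 37 genes, taken by symbol from the 35970 symbols of the deposited table, with all transcripts of a symbol summed. The genes were the eIF2 alpha kinases and eIF2 alpha itself (5), the phosphatase subunits that reverse the phosphorylation (2), transcription factors and cofactors (7), stress effectors and secreted targets (7), enzymes of asparagine, serine and one-carbon synthesis (7) and amino acid transporters (9). All 37 were found. They were chosen by function and not by their values in a contrast, although earlier results of these data were known when the list was drawn up.

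The data are ribosome-bound, polyadenylated RNA from the livers of 6 mice, 3 per group. Every mouse was Fah-/-;dCas9+, so all groups lack fumarylacetoacetate hydrolase, an enzyme of tyrosine breakdown, and carry the catalytically dead Cas9 used for CRISPR interference. All mice were kept on nitisinone at 7.5 µg/mL, a drug that protects Fah-deficient liver, until they received 10 µg of a transposon plasmid with an AAV8.TBG.PI.Cre.rBG virus, in which the hepatocyte promoter TBG drives Cre. The plasmid restored Fah, added the ribosomal protein L10a fused to GFP, and carried either a non-targeting guide (pkt2-fah-GFPL10a-CRISPRi-Nontargeting, here the controls) or a guide against Neurl1b, a ubiquitin ligase gene (pkt2-fah-GFPL10a-CRISPRi-Neurl1b, here CRISPRi). Nitisinone was stopped straight after injection and livers were taken at 4 weeks, when hepatocytes with the plasmid had been repopulating the liver. Ribosomes from 400 mg of liver were captured with an antibody to GFP, so only cells that took up the plasmid carry the tag. The sources used here give no age or sex.

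Cells under stress phosphorylate eIF2 alpha through a small family of kinases that sense lack of haem, double-stranded RNA, unfolded proteins in the endoplasmic reticulum or uncharged tRNA. Phosphorylation slows most translation while the mRNA of the transcription factor ATF4 is translated more, and ATF4 with partners of the C/EBP and CHOP families then raises genes for amino acid synthesis, amino acid uptake, tRNA charging and feedback. In liver the pathway is known for its answer to amino acid shortage and for the secretion of the hormone FGF21. ATF4 and its partners bind a composite of a C/EBP site and an ATF site, the C/EBP-ATF response element, called CARE.

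The CARE is the sequence that ties many of these genes to ATF4, so matches that begin upstream of the start are shown. RefSeq promoters (250 bases before to 50 bases after the start, build GRCm38.p6) were found for 30 of the 37 genes and searched on both strands for TGATGNAA, which reads TTNCATCA on the other strand. The search found it in 9 of these 30 genes, against 4.51% of all 27025 genes with a promoter in the same table. Matches are in capitals, and the bases around them in lower case, written 5′ to 3′ on the strand of the gene.

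Atf3, chr1:191183406-191183473, minus strand: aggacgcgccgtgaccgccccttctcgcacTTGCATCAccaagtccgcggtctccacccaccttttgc
Chac1, chr2:119351019-119351086, plus strand: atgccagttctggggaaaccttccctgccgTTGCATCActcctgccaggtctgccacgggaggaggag
Asns, chr6:7693210-7693262, minus strand: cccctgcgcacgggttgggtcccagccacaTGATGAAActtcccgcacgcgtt
Fgf21, chr7:45615592-45615659, minus strand: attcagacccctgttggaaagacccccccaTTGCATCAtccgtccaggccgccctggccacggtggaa
Nupr1, chr7:126625543-126625610, minus strand: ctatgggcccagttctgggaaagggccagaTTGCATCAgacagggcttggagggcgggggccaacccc
Slc1a4, chr11:20332710-20332747, minus strand: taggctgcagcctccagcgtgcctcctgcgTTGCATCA
Jdp2, chr12:85599353-85599415, plus strand: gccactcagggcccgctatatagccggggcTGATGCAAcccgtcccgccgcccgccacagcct
Vldlr, chr19:27216790-27216857, plus strand: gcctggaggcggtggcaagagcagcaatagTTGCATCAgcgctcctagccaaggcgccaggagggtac

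The same 8 letters, TTGCATCA, stand in Atf3, Chac1, Fgf21, Nupr1, Slc1a4 and Vldlr, and in Jdp2 they run the other way. Asns has the variant TGATGAAA. The match of Slc1a4 begins before the start and runs past it. The match of Trib3 lies after the start and is not printed. The cyclic AMP response element TGACGTCA was found in 1 member, Ppp1r15a, against 2.03% of genes, and the endoplasmic reticulum stress element (CCAAT, then 9 bases of any kind, then CCACG) in 0 of 30, against 0.14% of genes. A match is a description of the letters in this window. Since the list holds well known ATF4 targets, its share of matches is no independent evidence.

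Guide and tag were checked first. Neurl1b was at 1.22, 0.897 and 0.688 TPM in controls 1 to 3 and at 0.295, 0.351 and 0.307 TPM in CRISPRi mice 1 to 3, a mean of 33.9% of the control mean with no overlap. TPM express each transcript's share of its library per length and keep no read depth, so no counting error can be given for low values. Fah (52.9 to 71.4 against 52.5 to 79.6 TPM) and Rpl10a (979 to 1084 against 869 to 1066 TPM) overlapped between the groups. Markers of hepatocytes dominated every library, with 24605 to 57498 TPM summed over 7 markers. Other liver cells were present at low level. The 8 stellate cell and fibroblast markers summed to 12.1 to 27.1 TPM in controls and 29.9 to 43.3 TPM in CRISPRi mice, without overlap, and the 8 macrophage markers to 64.2 to 121 and 96.3 to 141 TPM. Sums for sinusoidal endothelium, cholangiocytes, lymphocytes, neutrophils and red cells overlapped, and no cell type marker was at 0 in all 6 libraries. Control 2 had the highest sums for hepatocytes (57498 TPM), red cells (3880 TPM) and neutrophils (53.5 TPM). In the other libraries these were 24605 to 35345, 490 to 1567 and 1.99 to 18.0 TPM. The part of these cell types, and of the make-up of control 2, in the results below was not tested. In such bulk samples, fewer cells of a type and less RNA per cell cannot be told apart.

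Control mouse 1 stands apart from controls 2 and 3. For 76.6% of the 10598 symbols with a mean TPM of at least 1, the ones tested, its TPM lay nearer to the CRISPRi mean than to the mean of controls 2 and 3, and for 67.9% it exceeded both. Mitochondrially encoded transcripts summed to 752 TPM in control 1 and to 1396 to 2159 TPM in the other 5 libraries. The tested members are therefore given with control 1 and, where that changes a call or moves a log2 fold change by more than 1.5 times, without it. Further lists are given without control 1 by their counts. Control 1 was singled out by these same values, and it lay nearer to the CRISPRi mice for most symbols. The p-values without it are therefore expected to lean low. Calls made without control 1 are a description and no independent test.

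Across the pathway, the members leaned to higher TPM in the CRISPRi mice, and none passed the test. The effectors Ddit4, Fgf21 and Trib3, the factors Ddit3 and Nupr1, the enzymes Asns and Psat1 and the carriers Slc1a4 and Slc3a2 had CRISPRi means 1.80 to 3.06 times the control means. Atf4 itself, Atf5 and the sodium-coupled carriers Slc38a3 and Slc38a4 had CRISPRi means 0.810 to 1.15 times the control means. Of the 37 genes, 29 had a mean TPM of at least 1 and were tested. With all mice, the lowest control mean among these 29 was 1.02 TPM, in Slc1a5. None therefore passed the filter through the CRISPRi mice alone. Without control 1 the filter was applied again. The remaining controls of Slc1a5 (0.785 and 1.08 TPM) and Vldlr (0.875 and 1.05 TPM) then averaged below 1 TPM. Both genes passed there only through the CRISPRi mice. Differences are log2 fold changes of TPM + 1, CRISPRi minus control, with the standard error and Benjamini-Hochberg adjusted p of limma over all tested symbols. At an adjusted p below 0.05, 0 of 29 members were called, against 0.0189% of all tested symbols, and the smallest adjusted p of a member was 0.310. At an unadjusted limma p below 0.05, 13 of 29 were higher, against a background of 10.1%, and 0 were lower, against 3.19%. All 3 CRISPRi libraries lay above all 3 controls in 12 of 29, against 12.5%, and below them in 0, against 4.57%. The log2 fold change was above 0 in 27 of 29, against 74% of all symbols, and its median was 0.48, against 0.18 over all symbols.

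A scaling to the median ratio between libraries took the median of all symbols from 0.18 to 0.00. Under it 21 of 29 members stayed above 0, against 49.8%, and 11 were higher at an unadjusted limma p below 0.05, against 6.44%, and 0 lower, against 6.66%. The scaled CRISPRi libraries lay above all controls in 10 members and below them in 2, against 998 and 993 of 10598 symbols. Without control 1, 15 of 29 members were higher at an adjusted limma p below 0.05, against 23.1% of symbols, and 0 were lower, against 2.24%. The 3 CRISPRi libraries then lay above both remaining controls in 21 of 29, against 52.3%. With both changes 5 members were called higher, against 1.74%, and 0 lower, against 2.74%. These 5 were Eif2s1, Nupr1, Ddit4, Vldlr and Slc1a4, of which Vldlr passed the filter there only through the CRISPRi mice. In that fit 13 members were higher and 3 lower at an unadjusted limma p below 0.05, against 1481 and 1737 of 10558 symbols. Without overlap, 13 members were higher and 4 lower, against 2575 and 2652 symbols. The mice are separate animals, so the p-values measure the spread between mice. Those without control 1 also carry the choice of that mouse by its values.

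**Figure D1:**
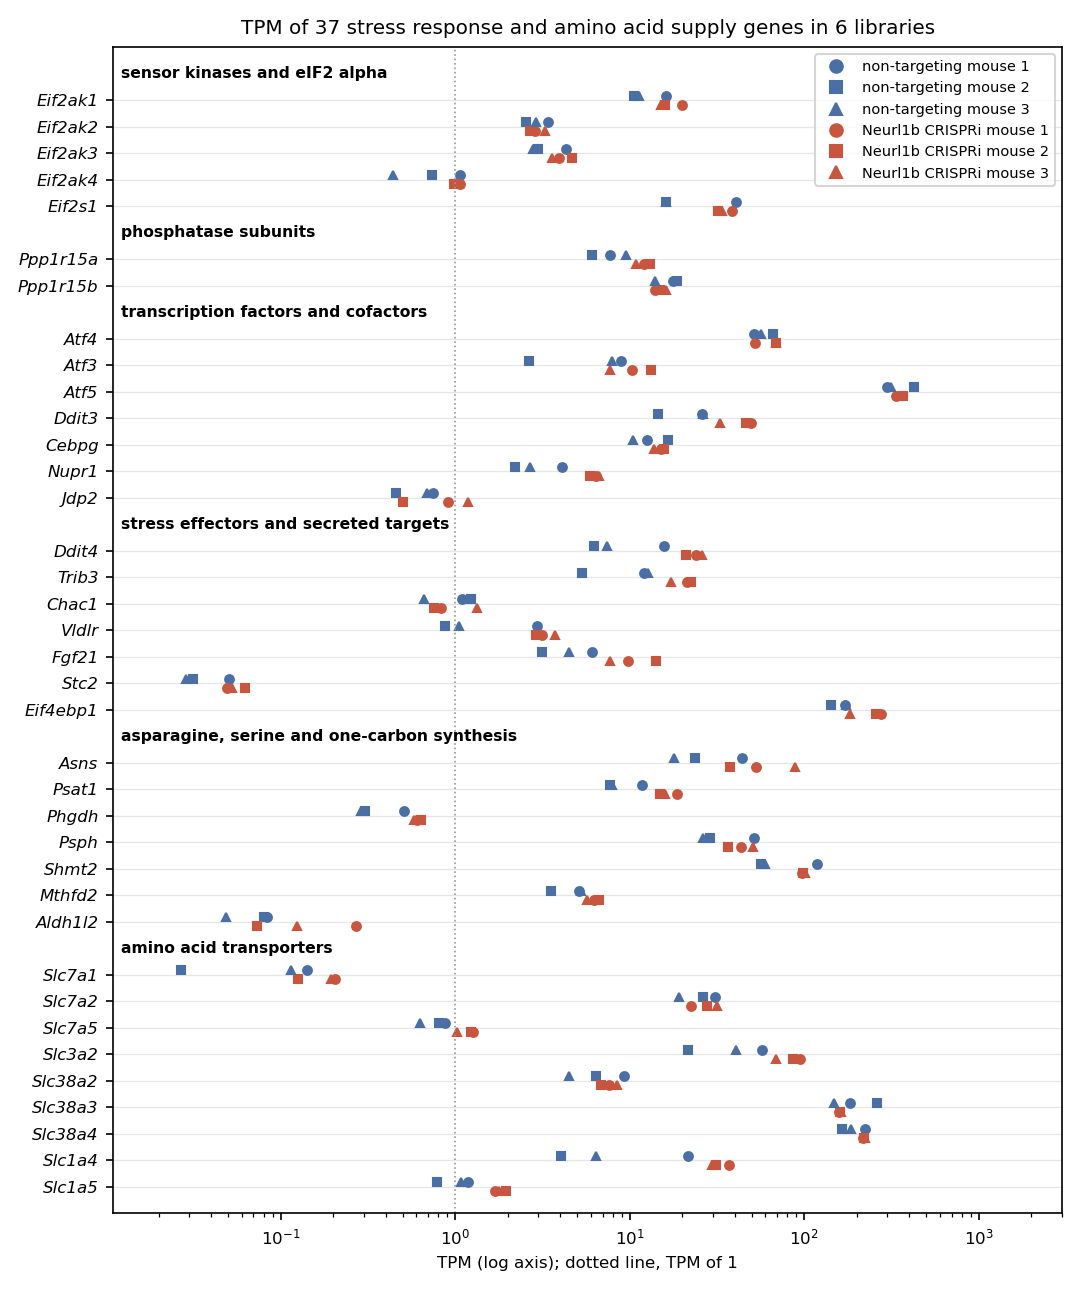
TPM of each of the 37 genes (log axis) in the 3 control libraries (blue) and the 3 Neurl1b CRISPRi libraries (red), by role class, with the symbol shape giving the mouse number. Ddit4, Trib3, Fgf21, Slc3a2 and Slc1a4 show red points wholly to the right of blue, while Atf4, Atf5 and Slc7a2 overlap, and 8 genes have a mean below the dotted line at 1 TPM.

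Of the sensors, the median log2 fold change over 4 tested genes was 0.31, and none was called or free of overlap. Eif2ak1, the haem-regulated kinase, was at 16.2, 10.6 and 11.4 TPM in controls and at 19.9, 15.9 and 15.2 TPM in CRISPRi mice. Control 1 fell inside the CRISPRi range, and the log2 fold change was 0.40 (SE 0.21, adjusted p = 0.407). Eif2ak1 without control 1 was at 0.58, with an adjusted p of 0.0416, and with median-ratio scaling as well 0.25, with an adjusted p of 0.282. Eif2ak3, the kinase of the endoplasmic reticulum also called PERK, was at 4.30, 3.0 and 2.81 TPM and at 3.92, 4.70 and 3.57 TPM. Eif2ak2, the kinase that binds double-stranded RNA, was at 3.42, 2.54 and 2.90 TPM and at 2.87, 2.70 and 3.28 TPM. These 2 kinases overlapped between the groups, with log2 fold changes of 0.22 and 0.00, and the sign for Eif2ak2 turned with the scaling. Without control 1 their values were 0.37 for Eif2ak3 and 0.08 for Eif2ak2, with adjusted p of 0.0991 and 0.644. Eif2ak4, or GCN2, which senses uncharged tRNA, missed the filter, with 0.442 to 1.07 TPM in controls and 0.982 to 1.07 TPM in CRISPRi mice.

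Eif2s1 encodes eIF2 alpha, the substrate of all these kinases, and shows the place of control 1 clearly. It was at 40.9, 16.1 and 16.2 TPM in controls and at 38.5, 32.2 and 34.0 TPM in CRISPRi mice. Control 1 lay above every CRISPRi library, while controls 2 and 3 lay below them all. The log2 fold change was 0.63 (SE 0.33, adjusted p = 0.408), and without control 1 it was 1.06, with an adjusted p of 0.0173. With median-ratio scaling as well it was 0.72, with an adjusted p of 0.0420.

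The phosphatase subunits had opposite signs. Ppp1r15a (GADD34), the stress-inducible subunit that feeds back on the response, was at 7.75, 6.05 and 9.54 TPM in controls and at 12.2, 13.1 and 10.8 TPM in CRISPRi mice. The groups did not overlap and control 1 sat among the other controls. The log2 fold change was 0.58 (SE 0.20, adjusted p = 0.344), and it was 0.39 under median-ratio scaling. Ppp1r15b (CReP), the constitutive subunit, was at 17.7, 18.6 and 13.9 TPM and at 14.0, 15.0 and 16.2 TPM, with a log2 fold change of -0.13. A single transcript typed as a processed transcript in GENCODE vM21 held 86.9% of the Ppp1r15b TPM, and with protein-coding transcripts alone the value was 0.17. The difference between the subunits was not tested.

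Among the transcription factors, the 6 tested genes had a median of 0.45. At an unadjusted limma p below 0.05, 2 were higher, against 10.1% of all tested symbols. Atf4, the central factor, whose protein level is set largely by translation, was at 51.3, 66 and 56.6 TPM in controls and at 52.1, 68.6 and 68.9 TPM in CRISPRi mice. The groups overlapped, and the log2 fold change of 0.12 had a 95% interval of -0.29 to 0.53. Without control 1 the Atf4 value was 0.04, and its sign turned under median-ratio scaling, to -0.09. Atf5, a related factor abundant in liver, was at 296 to 425 TPM in controls and 338 to 370 TPM in CRISPRi mice, and its log2 fold change of 0.06, with an interval of -0.34 to 0.46, also turned, to -0.16, and was -0.04 without control 1.

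Ddit3, which encodes CHOP, a partner and target of ATF4, was at 26.1, 14.6 and 26.4 TPM in controls and at 49.4, 46.2 and 33.0 TPM in CRISPRi mice. All CRISPRi libraries lay above all controls, and controls 1 and 3 were level. The CRISPRi mean was 1.92 times the control mean, with a log2 fold change of 0.94 (SE 0.26, adjusted p = 0.323). Ddit3 without control 1 was at 1.07, with an adjusted p of 0.0467, and with scaling as well 0.73, with an adjusted p of 0.156. Nupr1, a stress-induced chromatin cofactor, was at 4.11, 2.21 and 2.68 TPM and at 6.39, 5.92 and 6.68 TPM. Its groups did not overlap, at a ratio of means of 2.11 and a log2 fold change of 0.90 (SE 0.21, adjusted p = 0.310). Without control 1 the log2 fold change of Nupr1 was 1.09, with an adjusted p of 0.0173, and with scaling as well 0.82, with an adjusted p of 0.0420.

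Atf3, an early target of ATF4 that damps the response, was at 8.96, 2.65 and 7.89 TPM and at 10.3, 13.3 and 7.75 TPM. Only control 2 was far below the rest, and the log2 fold change of 0.71 (SE 0.38) had an adjusted p of 0.411. Cebpg, the C/EBP partner of ATF4, was at 12.5, 16.5 and 10.5 TPM and at 15.1, 15.7 and 13.9 TPM, with a log2 fold change of 0.19 that was -0.01 under median-ratio scaling. Jdp2, a repressor of the same binding family, missed the filter with 0.459 to 0.749 TPM in controls and 0.506 to 1.19 TPM in CRISPRi mice.

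**Figure D2:**
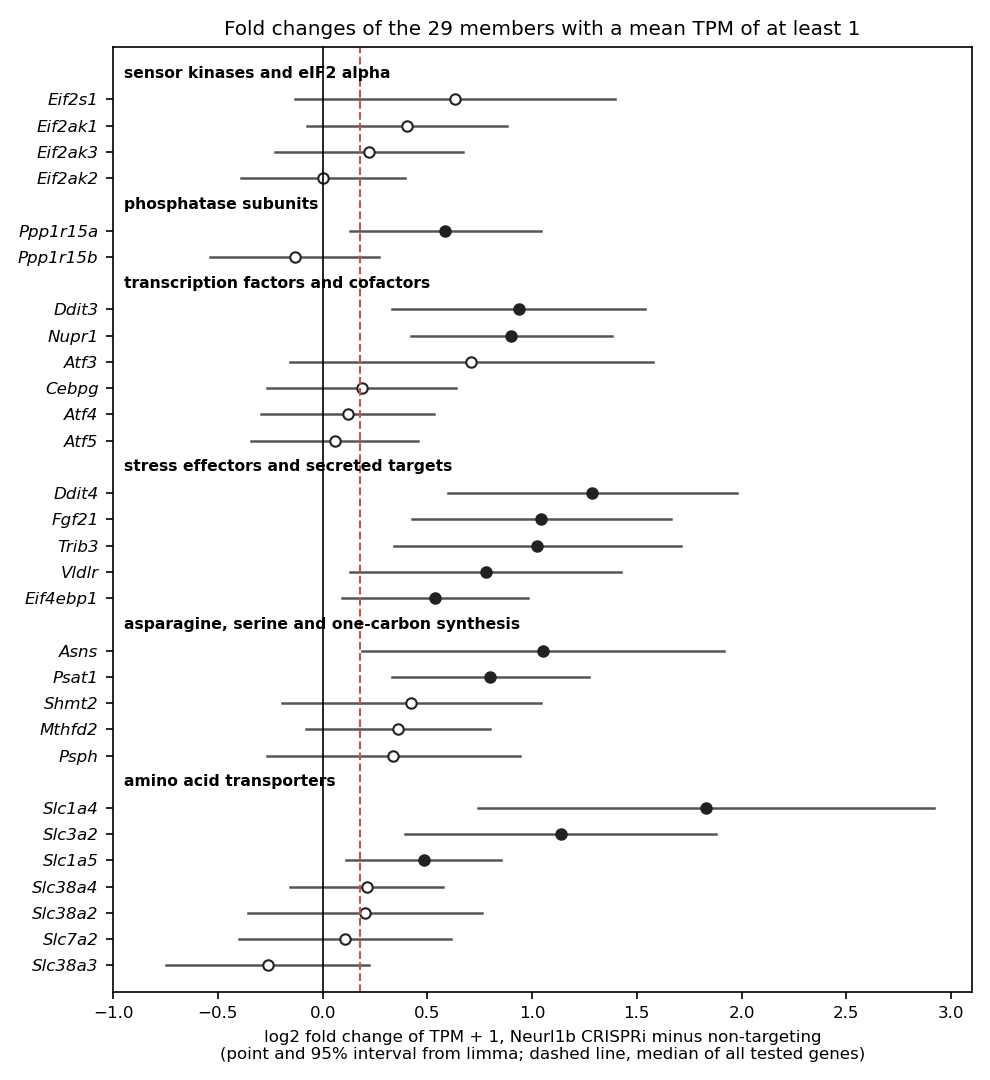
Log2 fold change of TPM + 1, Neurl1b CRISPRi minus control, with its 95% interval from limma, for the 29 tested members by class. Filled points have an unadjusted p below 0.05, and the dashed line is the median of all tested symbols. All 5 tested effectors are filled, while Atf4, Atf5 and Slc7a2 lie between 0 and that median.

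The stress effectors stood highest of the 6 classes, at a median of 1.02 on the log2 scale. All 5 tested were higher at an unadjusted limma p below 0.05, against 10.1% of all tested symbols. Of these, 4 were higher with no overlap, against 12.5%. Under median-ratio scaling 4 of the 5 were higher at that p, against 6.44%. Ddit4 (REDD1), which restrains the growth kinase complex TORC1, was at 15.6, 6.24 and 7.43 TPM in controls and at 24.0, 21.0 and 25.9 TPM in CRISPRi mice. Control 1 was above the other controls yet below every CRISPRi library. The ratio of means was 2.42 and the log2 fold change 1.29 (SE 0.30, adjusted p = 0.310). Without control 1 it was 1.65, with an adjusted p of 0.0173, and with scaling as well 1.33, with an adjusted p of 0.0294. Trib3, a pseudokinase that feeds back on ATF4 and on insulin signalling, was at 12.0, 5.34 and 12.8 TPM and at 21.3, 22.4 and 17.4 TPM. Here control 2 was the low library, and control 1 was level with control 3. The log2 fold change of Trib3 was 1.02 (SE 0.30, adjusted p = 0.323), at a ratio of means of 2.02. Trib3 without control 1 was at 1.18, with an adjusted p of 0.0489, and with scaling as well 0.86, with an adjusted p of 0.154.

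Fgf21, the hormone that liver secretes under nutrient stress, was at 6.11, 3.14 and 4.51 TPM in controls and at 9.84, 14.1 and 7.72 TPM in CRISPRi mice. The groups did not overlap, with a ratio of means of 2.30 and a log2 fold change of 1.04 (SE 0.27, adjusted p = 0.310). Without control 1 the adjusted p was 0.0275 at a log2 fold change of 1.24, and with scaling as well 0.0795 at 0.94. Eif4ebp1, the brake on cap-dependent translation 4E-BP1, was at 172, 142 and 174 TPM and at 274, 259 and 184 TPM. Its lowest CRISPRi library was close to the highest control, and the log2 fold change was 0.54 (SE 0.19, adjusted p = 0.344). Under median-ratio scaling the Eif4ebp1 value was 0.32, with an unadjusted limma p of 0.140. Of the Eif4ebp1 TPM, 80.0% sat on a transcript typed as processed.

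Vldlr, a lipoprotein receptor induced by the pathway in liver, was at 0.875 to 2.94 TPM in controls and 2.91 to 3.72 TPM in CRISPRi mice. The highest of these control values was control 1, which alone made the groups overlap. The log2 fold change of Vldlr was 0.78 (SE 0.28, adjusted p = 0.344). Without control 1 it was 1.11, with an adjusted p of 0.0173, and with scaling as well 0.90, with an adjusted p of 0.0420. In these 2 fits Vldlr passed the filter only through the CRISPRi mice, so they lend it no support. Chac1, which degrades glutathione and is a widely used marker of ATF4 activity, was at 0.660 to 1.24 TPM in controls and 0.762 to 1.33 TPM in CRISPRi mice. It missed the filter, and its log2 fold change in the fit with no filter was -0.02, with an interval of -0.46 to 0.42. Stc2, a secreted glycoprotein, was at or below 0.0630 TPM in every library.

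Of the enzymes that make asparagine, serine and one-carbon units, 5 were tested, and their median on the log2 scale was 0.42. Asns, asparagine synthetase, was at 44.0, 23.7 and 18.1 TPM in controls and at 53.2, 37.8 and 88.9 TPM in CRISPRi mice. CRISPRi mouse 2 lay below control 1, and CRISPRi mouse 3 was far above the rest. The ratio of means was 2.10 and the log2 fold change 1.05 (SE 0.38, adjusted p = 0.344), and without control 1 it was 1.40, with an adjusted p of 0.0402. With scaling as well the Asns value was 1.06, with an adjusted p of 0.126. Psat1, the aminotransferase of serine synthesis, was at 11.8, 7.74 and 7.97 TPM and at 18.6, 14.9 and 16.0 TPM. Its groups did not overlap, at a ratio of means of 1.80 and a log2 fold change of 0.80 (SE 0.21, adjusted p = 0.310). Leaving out control 1 put Psat1 at 0.98, with an adjusted p of 0.0173, and with scaling as well 0.66, with an adjusted p of 0.0513. Of the Psat1 TPM, 55.8% sat on a transcript typed as a retained intron, and the protein-coding transcript alone gave a log2 fold change of 0.84.

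The steps around Psat1 were uneven. Phgdh, which opens serine synthesis, was at 0.508, 0.303 and 0.290 TPM in controls and at 0.607, 0.639 and 0.579 TPM in CRISPRi mice, without overlap but under the filter. Psph, which closes it, was at 26.4 to 51.3 TPM in controls and 36.4 to 51.0 TPM in CRISPRi mice, and its log2 fold change of 0.34 (SE 0.26) had an adjusted p of 0.527. Leaving out control 1 put Psph at 0.63, with an adjusted p of 0.0436, and with scaling as well 0.29, with an adjusted p of 0.319. In every library Phgdh was the least abundant per length of these 3 enzymes. Shmt2, which splits serine in mitochondria, was at 118, 56.8 and 59.3 TPM and at 97.1, 98.8 and 101 TPM. Control 1 was the highest of the 6 libraries, and the log2 fold change of 0.42 (SE 0.27, adjusted p = 0.461) was 0.76 without it, with an adjusted p of 0.0173, and with scaling as well 0.41, with an adjusted p of 0.0732. Mthfd2, the next mitochondrial folate enzyme, was at 5.16, 3.54 and 5.28 TPM and at 6.27, 6.65 and 5.70 TPM. These Mthfd2 groups did not overlap, with a log2 fold change of 0.36 (SE 0.19, adjusted p = 0.410) that was 0.18 under median-ratio scaling. Aldh1l2, a mitochondrial formyl-folate dehydrogenase, was at 0.0484 to 0.0836 TPM in controls and 0.0737 to 0.270 TPM in CRISPRi mice.

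The transporters held both the widest difference of the list and several genes near 0, with a median of 0.21 over 7 tested. Slc1a4, a carrier of alanine, serine and cysteine, was at 21.6, 4.04 and 6.41 TPM in controls and at 37.2, 31.2 and 29.7 TPM in CRISPRi mice. Control 1 was more than 3 times controls 2 and 3 and still below every CRISPRi library. The ratio of means was 3.06 and the log2 fold change 1.83 (SE 0.48, adjusted p = 0.310). Without control 1 it was 2.46, with an adjusted p of 0.0173, and with scaling as well 2.14, with an adjusted p of 0.0266. Slc3a2, the CD98 heavy chain that carries several amino acid exchangers to the membrane, was at 57.5, 21.5 and 40.6 TPM and at 94.2, 86.4 and 68.9 TPM. These groups did not overlap, at a ratio of means of 2.09 and a log2 fold change of 1.14 (SE 0.32, adjusted p = 0.323). Without control 1 the Slc3a2 value was 1.45, with an adjusted p of 0.0254, and with scaling as well 1.11, with an adjusted p of 0.0736.

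Slc7a5 (LAT1), the light chain that imports large neutral amino acids on that heavy chain, was at 0.872, 0.808 and 0.627 TPM in controls and at 1.26, 1.24 and 1.03 TPM in CRISPRi mice. The groups did not overlap, and Slc7a5 missed the filter. Slc1a5 (ASCT2), a glutamine exchanger, was at 1.19, 0.785 and 1.08 TPM and at 1.68, 1.95 and 1.79 TPM, with no overlap and a log2 fold change of 0.48 (SE 0.16, adjusted p = 0.344). Leaving out control 1 put Slc1a5 at 0.54, with an adjusted p of 0.0386, and with scaling as well 0.35, with an adjusted p of 0.158. There it passed the filter only through the CRISPRi mice. Its leading coding transcript, with 49.35% of the TPM, was at 0.531, 0.333 and 0.808 TPM and at 0.994, 1.15 and 0.369 TPM. These values overlapped, at a log2 fold change of 0.22. Coding forms held 20.6% of the Slc1a5 TPM in CRISPRi mouse 3 and 42.4 to 74.7% in the other libraries. The most abundant carriers per length overlapped between the groups. Slc38a4, a sodium-coupled neutral amino acid carrier of hepatocytes, was at 223, 165 and 186 TPM and at 216, 219 and 224 TPM, with a log2 fold change of 0.21 and an interval of -0.16 to 0.58. The sign for Slc38a4 also turned with scaling, to -0.0038, and the value was 0.33 without control 1, with an adjusted p of 0.0793. Slc38a3, the glutamine and histidine carrier, was at 149 to 262 TPM in controls and 158 to 162 TPM in CRISPRi mice, with a log2 fold change of -0.26 and an interval of -0.75 to 0.22.

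Slc38a2 (SNAT2), the carrier known to rise when amino acids run short, was at 4.51 to 9.28 TPM in controls and 6.84 to 8.45 TPM in CRISPRi mice, with a log2 fold change of 0.20 (SE 0.24, adjusted p = 0.669). Without control 1 it was 0.43, with an adjusted p of 0.106. For cationic amino acids, liver uses the low-affinity form of Slc7a2. It was at 31.0, 26.3 and 19.3 TPM in controls and at 22.4, 27.8 and 31.8 TPM in CRISPRi mice, overlapping throughout, with a log2 fold change of 0.11 and an interval of -0.40 to 0.61. Under median-ratio scaling the Slc7a2 value was -0.10, and without control 1 it was 0.26, with an adjusted p of 0.362. Slc7a1, the arginine carrier of most other tissues, was at 0.0268 to 0.141 TPM in controls and 0.126 to 0.205 TPM in CRISPRi mice, below Slc7a2 in every library.

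Control 1 did not take the same place in every member. It lay above both other controls in 19 of the 29 tested members and inside the CRISPRi range in 7, or 24.1%, against 43.7% of all tested symbols. It was nearer to the CRISPRi mean than to that of controls 2 and 3 in 18, or 62.1%, against 76.6%. In Eif2s1, Shmt2, Psph, Slc38a2, Slc38a3, Slc38a4, Slc7a2, Ppp1r15b, Eif2ak2 and Eif2ak3 control 1 stood above the CRISPRi mean. In Ppp1r15a, Eif4ebp1, Ddit3, Trib3, Slc1a5 and Mthfd2 it stood near the other controls while the CRISPRi mice were higher. All 3 CRISPRi libraries exceeded controls 2 and 3 in 21 of 29 members, against 52.4% of symbols. These ratios share controls 2 and 3 on both axes of the plot against those mice, so they are a description only.

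**Figure D3:**
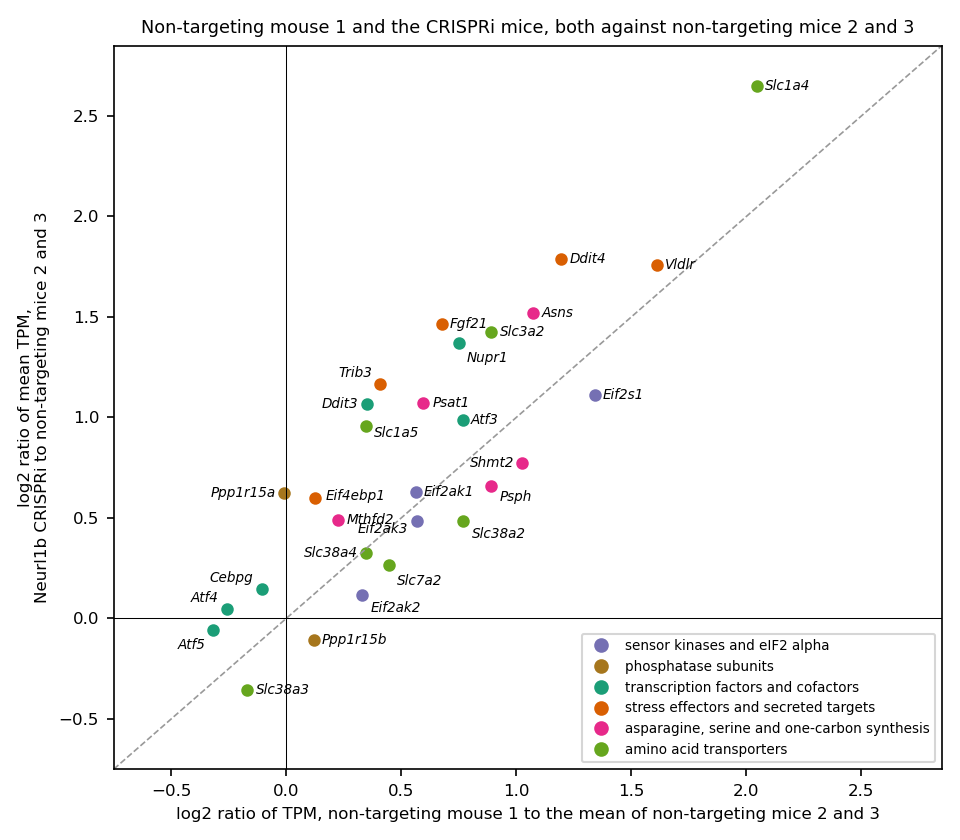
Log2 ratio of TPM in control mouse 1 (horizontal) and of the mean TPM in the 3 Neurl1b CRISPRi mice (vertical), both to the mean of control mice 2 and 3, for the 29 tested members, coloured by class. The dashed line marks equal ratios, and Ppp1r15a lies at the left with control 1 level with the other controls, while Eif2s1, Shmt2 and Psph lie below the line. Both axes share their denominator.

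Single transcripts carried part of the contrast with controls 2 and 3. Transcripts are named where they hold at least 10% of the TPM of their gene, which gave 67. Tested alone, 0 of them passed an adjusted limma p below 0.05 (smallest 0.612), and 17 were higher and 0 lower at an unadjusted p below 0.05. The same share over all transcripts was not worked out, so these counts cannot be set against a background. For Slc3a2, ENSMUST00000010239.6 was at 16.2, 1.55 and 0.925 TPM in controls and at 26.9, 17.9 and 12.9 TPM in CRISPRi mice. The most abundant Slc3a2 form, ENSMUST00000206598.2 with 58.6% of the TPM, was at 29.3, 15.1 and 29.4 TPM and at 49.9, 50.9 and 41.6 TPM, so there control 1 was level with control 3. For Shmt2, ENSMUST00000026470.6 was at 59.0, 14.4 and 6.86 TPM and at 52.0, 37.8 and 44.1 TPM, while ENSMUST00000219239.2 overlapped between groups at 42.3 to 58.7 and 44.5 to 60.7 TPM. In both genes control 1 parted from controls 2 and 3 most clearly on 1 form.

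The same held for Eif2s1 on a short form. ENSMUST00000220382.2, typed as a processed transcript, was at 12.2, 1.03 and 0.758 TPM in controls and at 13.3, 7.13 and 10.2 TPM in CRISPRi mice. The coding Eif2s1 form, ENSMUST00000071230.8, was at 28.6, 15.1 and 15.5 TPM and at 25.2, 25.0 and 23.8 TPM. In Slc1a4 both forms were higher in CRISPRi mice without overlap, with ENSMUST00000004634.7 at 3.70, 0.0323 and 0.445 TPM and at 11.4, 7.23 and 8.48 TPM. In Atf3, the main form ENSMUST00000027941.14 was at 6.39, 1.77 and 3.23 TPM and at 10.3, 10.1 and 7.33 TPM, without overlap, although the summed gene overlapped. The other Atf3 form, ENSMUST00000195117.2 with 23.0% of the TPM, went the other way, at a log2 fold change of -0.89. It was at 2.57, 0.879 and 4.65 TPM in controls and at 0.0106, 3.14 and 0.422 TPM in CRISPRi mice, with overlap. Kallisto divides reads between forms of a gene by estimation, so such shares are less certain than the sums.

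**Figure D4:**
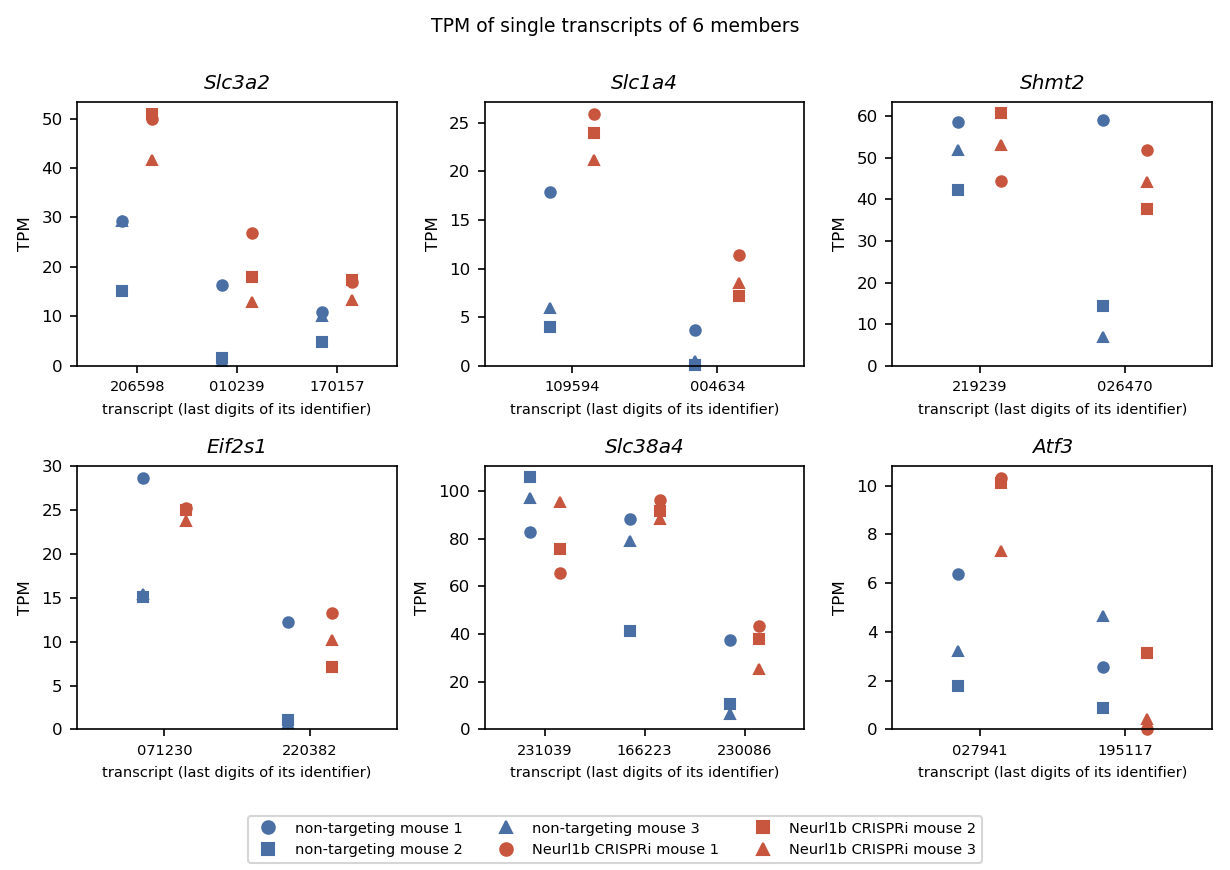
TPM (linear axes from 0) of the transcripts of Slc3a2, Slc1a4, Shmt2, Eif2s1, Slc38a4 and Atf3 that hold at least 10% of the TPM of their gene, in the 3 control (blue) and 3 Neurl1b CRISPRi (red) libraries, labelled by the last digits of the identifier. For the second forms of Slc3a2, Shmt2 and Eif2s1, control mouse 1 lies with the red points and controls 2 and 3 lie near 0 or low.

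Set beside the promoters printed above, the tested members with a CARE match were Asns, Atf3, Fgf21, Nupr1, Slc1a4, Trib3 and Vldlr. All but Atf3 were higher at an unadjusted p below 0.05, with a median log2 fold change of 1.02. The 17 tested members with a promoter and no match had a median of 0.36, and 5 of them were higher at that p. Over all tested symbols, the 222 with a match had a median of 0.21 and 13.5% higher, and the 8049 with no match 0.18 and 9.74%. No test was made of these shares. Ddit4, Ddit3, Psat1 and Slc3a2 had no match in this window and stood within the range of the members with one. Chac1 held a match and overlapped between the groups, as did Asns, Atf3, Jdp2 and Vldlr. The CRISPRi libraries lay above the controls without overlap in 4 of the 7 tested members with a match and in 6 of the 17 without. Over all tested symbols this held for 31 of the 222 with a match and for 1003 of the 8049 without.

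The wider pathway was read from 8 further lists, whose counts stand beside 10.1% higher and 3.19% lower at an unadjusted limma p below 0.05 over all tested symbols, and a median of 0.18. The nearest, 18 tested of the other known ATF4 targets, had a median of 0.44 on the log2 scale, with 5 higher and 0 lower at an unadjusted limma p below 0.05. Aldh18a1, which starts proline synthesis, was at 0.948, 0.471 and 0.437 TPM in controls and at 2.02, 1.72 and 1.92 TPM in CRISPRi mice. Its log2 fold change was 0.85 (SE 0.18, adjusted p = 0.259). With a control mean of 0.618 TPM, Aldh18a1 passed the filter only through the CRISPRi mice. Its place among the 5 is therefore no support. Slc7a11, the cystine importer, was at 20.6, 2.79 and 7.86 TPM and at 26.5, 25.7 and 31.4 TPM (log2 fold change 1.68, SE 0.53, adjusted p = 0.332). Sqstm1, a receptor of selective autophagy, had a log2 fold change of 1.2 (SE 0.34, adjusted p = 0.323). Slc7a11 and Sqstm1 are also known targets of the oxidative stress factor NRF2.

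The 23 cytosolic tRNA synthetases and their scaffolds had a median of 0.32, with 20 above 0 and 4 higher at an unadjusted p below 0.05. Gars, which charges glycine tRNA, was at 66.8, 24.2 and 42.6 TPM in controls and at 114, 96.7 and 77.3 TPM in CRISPRi mice, without overlap (log2 fold change 1.19, SE 0.34, adjusted p = 0.323). Sars, for serine, stood at 0.67 and the scaffold protein Aimp2 at 0.50. Among 12 genes of eIF2, its exchange factor eIF2B and their regulators, 1 was higher at that p, Impact, which inhibits GCN2, at 1.02, and the exchange factor subunit Eif2b2 and the eIF2 gamma gene Eif2s3x stood at 0.26 and 0.30. The median of these 12 was 0.23.

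Of 16 tested other amino acid transporters, 4 were higher and 2 lower at an unadjusted limma p below 0.05, with a median of 0.21. The taurine carrier Slc6a6 was at 17.2, 9.63 and 9.50 TPM and at 19.3, 16.1 and 23.6 TPM. Slc1a2, a glutamate carrier found in hepatocytes around the central vein, was at 3.77, 21.8 and 8.27 TPM in controls and at 2.35, 4.44 and 1.75 TPM in CRISPRi mice, and its log2 fold change of -1.44 (SE 0.52) had an adjusted p of 0.344. Control 2 was far above the rest for Slc1a2, and control 1 fell inside the CRISPRi range. Slc43a1, a carrier of branched-chain amino acids, was at 4.77, 5.44 and 4.30 TPM and at 2.82, 2.92 and 3.69 TPM, lower without overlap, at a log2 fold change of -0.50.

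The ATF6 and IRE1 branches, which answer unfolded proteins alongside PERK, had a median of 0.03 over 17 tested genes, with 2 higher and 0 lower at an unadjusted limma p below 0.05. Over 17 genes this is near the share of all symbols. The 2 genes were Atf6b and the chaperone cofactor Dnajb9, both at 0.62, and Atf6 stood at 0.35. Under median-ratio scaling the median of these 17 was -0.17, with 4 above 0, against 49.8% of symbols. At an unadjusted limma p below 0.05, 1 was then higher and 1 lower. Without control 1 as well, 1 was higher and 6 lower, against 1481 and 1737 of 10558 symbols. Folate and serine use had a median of 0.06 over 21 tested genes, with 2 higher, Mthfd1l (0.64) of mitochondrial folate metabolism and the glycine cleavage enzyme Gldc (0.68), and Sardh, a sarcosine dehydrogenase, at -0.34. The share higher was again near that of all symbols, as it was for the 12 genes of eIF2 and eIF2B. Under median-ratio scaling the folate and serine genes had a median of -0.15, with 6 of 21 above 0. The mitochondrial relay to eIF2 alpha had a median of 0.25 over 11, with 2 higher, the proteases Oma1 (0.70) and Afg3l2 (0.56), and Lonp1 at 0.48. Amino acid sensing by TORC1 had a median of 0.21 over 24, with 4 higher at that p, including Mtor (0.59), Nprl3 (0.68) and Rragd (0.80). The remaining gene of these 4 had a control mean of 0.907 TPM and passed the filter only through the CRISPRi mice. No gene of the 8 lists was called at an adjusted p below 0.05 with all mice. Without control 1 the called genes numbered 4 for eIF2 and eIF2B, 13 for tRNA synthetases, 7 for other ATF4 targets, 8 for other transporters, 5 for folate and serine use, 3 for ATF6 and IRE1, 7 for the mitochondrial relay and 8 for TORC1, of which 1 of the transporters was lower. Over all symbols 23.1% were then called higher and 2.24% lower, so the counts for folate and serine use (5 of 21) and for ATF6 and IRE1 (3 of 17) are near or below that share. With scaling as well the called genes of the 8 lists numbered 1, 0, 2, 0, 0, 0, 1 and 1 in that order, against 1.74% higher and 2.74% lower over all symbols. Aldh18a1, which passed the filter only through the CRISPRi mice, was among the called ATF4 targets in both fits.

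**Figure D5:**
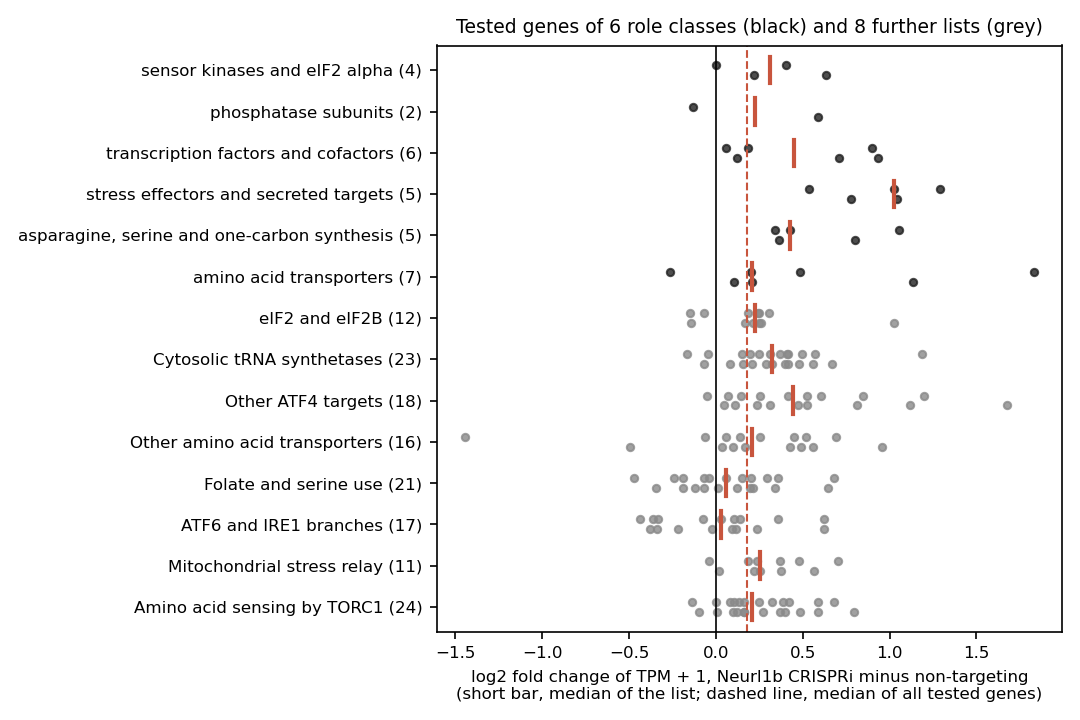
Log2 fold change of TPM + 1, Neurl1b CRISPRi minus control, for each tested gene of the 6 role classes (black) and the 8 further lists (grey), with the number tested in brackets. Short bars are list medians and the dashed line is the median of all tested symbols, 0.18. The stress effectors have the highest median, 1.02, and the ATF6 and IRE1 genes the lowest, 0.03.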

How the data were processed

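Per the labels, translating ribosome affinity purification was followed by poly(A) selection and sequencing of 6 livers, 3 per group, and titles gave group and mouse number. The deposited values are TPM per transcript, made by the authors with kallisto and build mm39 per the submitters' processing notes. The sources used here name no version or transcript set. Columns total about 1000000, so depth is unknown. The 117486 transcripts were summed per symbol, leaving out 168 without one. Symbols averaging at least 1 TPM (10598) entered limma 3.58.1 under R 4.3.3, as log2(TPM + 1) (trended prior, two-sided, Benjamini-Hochberg over all tested symbols, no covariate). Members under the filter come from the fit with no filter. An exact permutation of 3 against 3 cannot give a p below 0.1 and was not used.

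Members, lists, tests and the naming rule were chosen with earlier results of these data known. All members could be named, and from each further list the 3 genes of smallest unadjusted p. Transcript types come from GENCODE vM21 and promoters from RefSeq, both on GRCm38, for which no coordinate was converted. Of 39 member promoters, 35 were found in the transcripts in the orientation given and 0 in reverse. The test script was checked on simulated data. Alternatives covered pseudocount, filter, scaling, prior, library weights, block, single libraries, threshold, single transcripts and, added after the data were seen, protein-coding transcripts alone.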

Additional observations from a re-analysis of the deposited data

How the results depend on the processing

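The count of symbols called at an adjusted limma p below 0.05 was 2 in the reported fit. It was 0 with a pseudocount of 5, with no filter and with quantile normalization, 1 with a mean TPM of at least 5 or with protein-coding transcripts alone, 2210 with array weights, and 473 without control 1 under median-ratio scaling. Leaving out 1 library gave 0 to 2673, the highest without control 1. Called members, 0 as reported, were 14 with array weights, 5 without control 1 under scaling and 0 to 15 with 1 library left out. Members higher at an unadjusted limma p below 0.05, 13 as reported, were 20 with array weights, against 3936 of 10598 symbols. With 1 library left out they were 8 to 21. The lowest was without control 2, against 437 of 10635 symbols, and the highest without control 1, against 4188 of 10558.

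In the order eIF2 and eIF2B, tRNA synthetases, other ATF4 targets, other transporters, folate and serine use, ATF6 and IRE1, mitochondrial relay and TORC1, called genes numbered 2, 12, 7, 7, 3, 2, 4 and 5 with array weights, and 0 to 4, 0 to 13, 0 to 7, 0 to 8, 0 to 5, 0 to 3, 0 to 7 and 0 to 8 with 1 library left out. Without control 1 under scaling, 1, 2, 1 and 1 were called among eIF2 and eIF2B, other ATF4 targets, the relay and TORC1. In the reported fit the lists held 12, 23, 18, 16, 21, 17, 11 and 24 tested genes in the order above. Over all symbols, array weights called 1963 of 10598 higher and 247 lower. Without control 1, 2436 of 10558 were called higher and 237 lower, and with scaling as well 184 and 289.

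The median of the phosphatase subunits (0.23) was 0.16 with a pseudocount of 5, 0.0269 with median-ratio scaling, 0.0355 with quantile normalization, -0.0749 without control 1 under scaling and 0.38 with protein-coding transcripts. That of the transcription factors (0.45) was 0.30 with a pseudocount of 5, 0.19 with no filter or with a mean TPM of at least 5, 0.26 with either scaling or without control 1 under scaling, 0.60 with array weights and 0.30 to 0.57 with 1 library left out. The median of the effectors was 0.69 with a pseudocount of 5 and 0.66 to 1.18 with 1 library left out, and that of the synthesis enzymes 0.24 to 0.76.

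Signs turned only in members with reported log2 fold changes from -0.26 (Slc38a3) to 0.21 (Slc38a4). Median-ratio scaling, quantile normalization and scaling without control 1 gave -0.16, -0.18 and -0.18 for Eif2ak2, -0.0930, -0.0101 and -0.31 for Atf4, -0.16, -0.0139 and -0.39 for Atf5, and -0.0992, -0.0698 and -0.0836 for Slc7a2. Cebpg was -0.0147 with scaling and -0.16 without control 1 as well, and Slc38a4 was -0.0038 and -0.0254. Eif2ak2 was -0.000276 with a pseudocount of 5 and Ppp1r15b 0.17 with protein-coding transcripts. The leading transcript alone gave -0.0885 for Jdp2, 0.31 for Slc38a3 and -0.28 for Slc38a4. Other forms with at least 10% of the TPM had the opposite sign, at -0.65 for Slc38a3 and at 0.47 and 1.25 for Slc38a4. Leaving out 1 library gave -0.0753 to 0.0840 for Eif2ak2, -0.0429 to 0.22 for Atf5, -0.15 to 0.0599 for Chac1, -0.0748 to 0.26 for Slc7a2 and -0.0185 to 0.43 for Slc38a2. The causes were not tested.

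The labels do not say that the mouse number pairs mice across groups. Deviations of same-numbered mice correlated across genes at 0.06, -0.10 and -0.28, and those of differently numbered mice at -0.17 to 0.22. Deviations within a group depend on each other, so these values cannot settle whether mice were paired. With the mouse number as a replicate block, 2 symbols and 0 members were called, with a smallest adjusted limma p of 0.119 among members. At an unadjusted limma p below 0.05, 14 members were then higher, against 1137 of 10598 symbols. TPM keep no depth, so the precision of members under 1 TPM is unknown.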

Other observations

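Ratios within a library do not depend on the scaling between libraries, and were described with no test. The log2 ratio of Slc7a5 to its heavy chain Slc3a2 was -6.04, -4.73 and -6.02 in controls and -6.23, -6.13 and -6.06 in CRISPRi mice, so the light chain was the rarer in every library. This ratio was lower in CRISPRi mice without overlap, narrowly against controls 1 and 3, and control 2 stood apart. The other ratios overlapped between the groups. Inducible Ppp1r15a to constitutive Ppp1r15b was -1.19, -1.62 and -0.55 in controls and -0.20, -0.19 and -0.59 in CRISPRi mice, with control 3 inside the CRISPRi range. The ratio of Ddit3 to Atf4 was -0.98, -2.18 and -1.10 in controls and -0.08, -0.57 and -1.06 in CRISPRi mice. The ratio of Asns to Atf4 was -0.22, -1.48 and -1.65 in controls and 0.03, -0.86 and 0.37 in CRISPRi mice. For both, control 1 lay inside the CRISPRi range. Mthfd2 to Shmt2, consecutive steps of mitochondrial folate metabolism, averaged -4.0 ± 0.51 (SD, n = 3) in controls and -4.0 ± 0.14 (SD, n = 3) in CRISPRi mice. The carriers Slc38a2 to Slc38a4 averaged -4.88 ± 0.42 (SD, n = 3) and -4.85 ± 0.14 (SD, n = 3), and Slc7a1 to Slc7a2 averaged -8.37 ± 1.37 (SD, n = 3) and -7.30 ± 0.51 (SD, n = 3).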
